A study of Mus musculus with 6 samples.

Results

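The MAP kinase phosphatases are dual specificity phosphatases, enzymes that remove phosphate from both the threonine and the tyrosine that switch a MAP kinase on. The 9 genes Dusp1, Dusp2, Dusp4, Dusp5, Dusp6, Dusp7, Dusp8, Dusp10 and Dusp16 were followed here by every array probe whose RefSeq accession maps to them. They are 9 of the 23462 genes matched to the array and have 10 of its 56605 probes, Dusp8 having 2 and each other gene 1. All 10 were well above background on all 6 arrays and all 10 were tested. The arrays held RNA of BV2 cells, an immortalized mouse microglial line, with or without overexpression of PGC-1α, a transcriptional coactivator known for its part in mitochondrial biogenesis. There were 3 control arrays and 3 PGC-1α arrays, and the cells of both groups had received LPS (lipopolysaccharide, a bacterial membrane component), at 500 ng per ml for 6 h in the paper's cell culture methods, which do not name the arrays. In those methods PGC-1α was delivered by a lentivirus with a ubiquitin promoter, the control virus carried no PGC-1α, and the overexpressing cells were chosen by puromycin resistance. The comparison asks which transcripts differed between PGC-1α-overexpressing and control cells after LPS, and since no array of unstimulated cells was analysed here, no value says how far LPS itself had moved a gene.

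LPS acts through the receptor Tlr4 on 3 branches of MAP kinases, ERK, JNK and p38, and each branch drives transcription of inflammatory genes in microglia and macrophages. The phosphatases act against them and many are themselves induced by the kinases they switch off, which makes them feedback inhibitors. Dusp1, Dusp2, Dusp4 and Dusp5 encode inducible enzymes of the nucleus, of which Dusp5 is selective for ERK. Dusp6 and Dusp7 encode ERK-selective enzymes of the cytoplasm, and Dusp8, Dusp10 and Dusp16 encode enzymes that act mainly on JNK and p38. In macrophages, Dusp1 is known as a brake on p38 and on cytokine production.

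The PGC-1α arrays were dimmer than the control arrays as a whole, with a 75th percentile of the intensity of 856 to 1268 against 1617 to 1893, so every level given here is a log2 intensity minus the 75th percentile of the same array (the log2 level). The median log2 fold change of all 39295 tested probes (PGC-1α minus control) was 0.25 on this scale and 0.05 after quantile normalization. The arrays lay on 2 slides, with 2 of each group on slide 1 and 1 of each group, replicate 3, on slide 2. Nothing in the labels says that the replicates came from separate cultures, so p-values measure the spread between these samples, which may be technical. Ppargc1a, which encodes PGC-1α, was read by 2 probes near background. Its log2 fold changes of 1.14 (adjusted p = 0.069 from limma with no filter on dim probes) and 0.26 (adjusted p = 0.49) give no firm check of the labels. Of 12 microglia and macrophage markers, 11 were well above background on all arrays, and the 12th, Cx3cr1, was so on none. Their summed level, in multiples of the 75th percentile, was 95.3 to 98.6 on the control arrays and 132 to 156 on the PGC-1α arrays. Of 11 tested, 5 were higher and 0 lower, where 34.6% of all tested genes were higher and 18.4% lower. After quantile normalization 0 were higher and 2 lower, against 21.2% and 20.9% of all tested genes. Of neuron markers 1 of 4 tested was lower and 2 higher, of astrocyte markers 0 of 4 lower and 2 higher, and of oligodendrocyte markers 0 of 4 lower and 1 higher. The summed levels of these lists were 24.3 to 29.8 against 36.6 to 49.9, 0.256 to 0.308 against 0.438 to 0.568, and 1.03 to 1.14 against 1.17 to 1.31 (control against PGC-1α). Syt1, Slc17a7 and Olig1 were not well above background on any array. After quantile normalization 1 neuron marker was lower and 1 higher, 0 and 2 astrocyte markers, and 0 and 1 oligodendrocyte markers. The neuron sum mainly follows Snap25, at mean log2 levels of 4.65 against 5.35. Its log2 fold change after quantile normalization was 0.08 (adjusted p = 0.6 from limma). Tubb3, the next brightest neuron marker tested, fell from 1.04 to 0.41. The part of these differences in the results on the phosphatases was not tested.

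Of the 10 phosphatase probes, 5 were lower on the PGC-1α arrays, those of Dusp1, Dusp2, Dusp5, Dusp6 and Dusp10 (limma, adjusted p of 0.05 over all probes, against 18.2% of all tested probes lower). Another 2 were higher, both of Dusp8, against 35.2% of all tested probes. The counts after quantile normalization were again 5 lower and 2 higher, against 20.4% and 22.7% of all tested probes. The probes of Dusp4, Dusp7 and Dusp16 did not pass. All 5 of the lower probes fell by more than 1 on the log2 scale, against 8.34% of all tested probes that passed and fell by at least 1, and neither Dusp8 probe rose by as much as 1 (8.07% of all tested probes did so). In these 5 every PGC-1α array lay below every control array (22.2% of the 37314 probes with all values), and in the 2 probes of Dusp8 every PGC-1α array lay above (41.4%). With 3 arrays against 3, the smallest p of the exact two-sided permutation test is 0.1, which each of these 7 probes reached. The genes that fell included 3 of the 4 nuclear enzymes, 1 of the 2 cytoplasmic enzymes and 1 of the 3 enzymes of the JNK and p38 class. In RNA of a whole culture, fewer cells with a transcript and less of it per cell cannot be told apart.

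**Figure D1:**
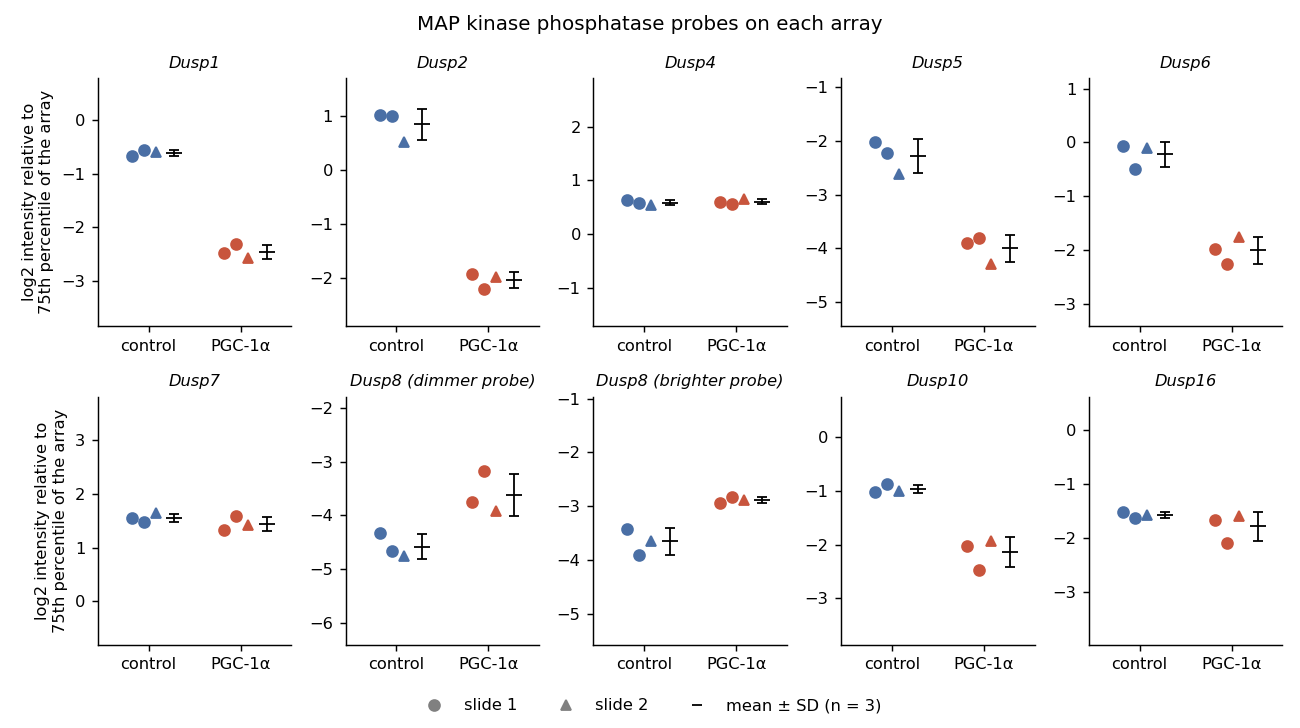
Log2 intensity relative to the 75th percentile of the array (vertical axes) for each of the 10 phosphatase probes on the 3 control and the 3 PGC-1α arrays, with each point 1 array (circles slide 1, triangles slide 2) and the bar the group mean ± SD. The PGC-1α points lie below all control points for Dusp1, Dusp2, Dusp5, Dusp6 and Dusp10, above them for both Dusp8 probes, and overlap with them for Dusp4, Dusp7 and Dusp16.

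Promoters of 8 of the 9 genes, all but Dusp4, were at hand in RefSeq (assembly GRCm38.p6) as windows from 250 bases before to 50 after the transcript start, beside 32851 promoters in all. The 3 that held a full cAMP response element (TGACGTCA, a site of CREB and related factors) or a CArG box (a site of serum response factor) follow with their 250 upstream bases, because both elements are known from immediate early genes, a class to which Dusp1 belongs. The Dusp1 sequence is chr17:26508473-26508722 (minus strand), the Dusp5 sequence chr19:53528895-53529144 (plus strand) and the Dusp8 sequence chr7:142095285-142095534 (minus strand). Capitals mark the cAMP response elements, their core TGACG on either strand (CGTCA when read in this direction) and the CArG boxes.
Dusp1: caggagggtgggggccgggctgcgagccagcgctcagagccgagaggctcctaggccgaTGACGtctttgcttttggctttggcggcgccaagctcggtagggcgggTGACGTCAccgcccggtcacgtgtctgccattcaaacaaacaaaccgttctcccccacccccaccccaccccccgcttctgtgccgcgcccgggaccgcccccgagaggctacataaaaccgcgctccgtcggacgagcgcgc
Dusp5: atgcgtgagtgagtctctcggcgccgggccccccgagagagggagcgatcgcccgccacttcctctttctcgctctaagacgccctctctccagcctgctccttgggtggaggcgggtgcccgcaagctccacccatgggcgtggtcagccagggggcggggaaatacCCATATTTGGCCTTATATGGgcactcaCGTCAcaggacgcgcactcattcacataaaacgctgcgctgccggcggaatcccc
Dusp8: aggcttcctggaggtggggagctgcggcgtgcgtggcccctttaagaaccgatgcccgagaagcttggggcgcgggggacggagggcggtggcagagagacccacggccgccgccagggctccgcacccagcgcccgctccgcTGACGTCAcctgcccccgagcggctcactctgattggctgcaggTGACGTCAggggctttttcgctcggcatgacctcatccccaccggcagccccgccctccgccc
The full cAMP response element stood in Dusp1, with its first base at -143 from the transcript start, and at -107 and -63 in Dusp8, against 1.79% of all promoters. Dusp1 fell and Dusp8 rose on the PGC-1α arrays, so the same letters stood before genes with opposite changes. The core TGACG, which overlaps the full element, was in 5 of the 8 promoters, those of Dusp1, Dusp2, Dusp5, Dusp8 and Dusp16, against 20.8% of all. Dusp5 held 2 CArG boxes side by side, at -82 and -72, against 1.63% of all promoters with at least 1. On either strand, none of the 8 windows held the AP-1 element TGAGTCA (5.2% of all promoters), the EGR element GCGTGGGCG (0.612%), the ETS element CCGGAAGT (3.89%), the estrogen-related receptor element TCAAGGTCA (0.423%), the sequence TATAAA (13.6%) or the NF-kappaB element (4.51%). A match describes letters in this window and not a bound site.

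Among the nuclear enzymes, Dusp2 fell furthest, Dusp1 and Dusp5 fell as well and Dusp4 did not pass the test. Dusp2 (NM_010090, probe A_52_P399934, chromosome 2), an enzyme of activated immune cells, read 3284, 3284 and 2718 intensity units in the controls against 303, 185 and 319 with PGC-1α. Its log2 levels were 1.02, 1.01 and 0.52 against -1.93, -2.21 and -1.99. The groups stood far apart, and control replicate 3 was the lowest of its group. Mean levels were 0.85 ± 0.29 (SD, n = 3) in the controls against -2.04 ± 0.15 (SD, n = 3), which gives a log2 fold change of -2.90 (SE 0.18, 95% interval -3.31 to -2.49, adjusted p = 5.2e-05 from limma), which is 7.45-fold lower. Only 0.44% of all tested probes had a lower log2 fold change. The difference was -3.09 on slide 1 and -2.51 on slide 2.

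Dusp1 (NM_013642, probe A_55_P2908530, chromosome 17), the inducible phosphatase of p38 and JNK named above, had intensities of 1017, 1097 and 1253 in the controls against 207, 172 and 214 with PGC-1α. The log2 levels were -0.67, -0.57 and -0.60 against -2.48, -2.31 and -2.56. Both groups were tight, with means of -0.61 ± 0.05 (SD, n = 3) and -2.45 ± 0.13 (SD, n = 3). The log2 fold change was -1.84 (SE 0.13, 95% interval -2.14 to -1.54, adjusted p = 9.1e-05 from limma), 3.58-fold lower, with -1.78 on slide 1 and -1.97 on slide 2.

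Dusp5 (NM_001085390, probe A_55_P2063237, chromosome 19), the nuclear phosphatase of ERK, was dimmer, with intensities of 400, 349 and 307 in the controls against 77.0, 61.3 and 65.1 with PGC-1α. Its log2 levels were -2.02, -2.22 and -2.63 against -3.91, -3.80 and -4.28, with replicate 3 the lowest in each group. The fold change was -1.71 on the log2 scale (SE 0.20, 95% interval -2.18 to -1.24, adjusted p = 7.1e-04 from limma), 3.27-fold lower, and the slides gave -1.74 and -1.66. The size depended on the processing before scaling. With normexp, an offset of 50 and the 75th percentile the log2 fold change was -1.07 (adjusted p = 1.3e-04 from limma).

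Dusp4 (NM_176933, probe A_51_P518051, chromosome 8), a nuclear phosphatase close in sequence to that of Dusp1, stood at 0.63, 0.58 and 0.54 in the controls against 0.60, 0.55 and 0.66 with PGC-1α. The groups overlapped, with PGC-1α replicate 3 the highest and control replicate 3 the lowest of the 6. The log2 fold change was 0.02 (SE 0.12, adjusted p = 0.88 from limma), with a 95% interval of -0.26 to 0.31, and its sign changed with the scaling (-0.02 after quantile normalization). Differences between probes on the same array do not change when the whole array is scaled by 1 factor. Dusp1 minus Dusp4 was -1.30, -1.15 and -1.13 in the controls against -3.08, -2.87 and -3.22 with PGC-1α, a change of -1.86. For Dusp2 minus Dusp4 the values were 0.39, 0.44 and -0.02 against -2.54, -2.76 and -2.65, a change of -2.92. These differences between probes carry each probe's own brightness, so only their change between groups is read.

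**Figure D2:**
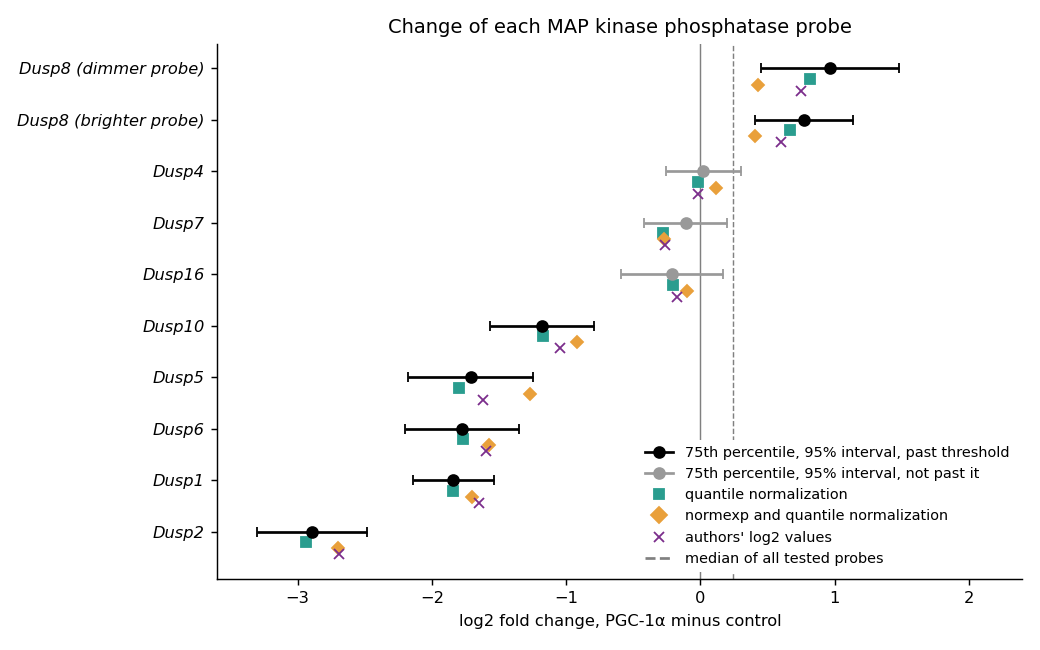
Log2 fold change (PGC-1α minus control, horizontal axis) of each phosphatase probe, with the circle and bar the estimate and 95% interval after scaling to the 75th percentile and the other symbols the estimates from quantile normalization, normexp with quantile normalization and the authors' log2 values. The intervals of Dusp1, Dusp2, Dusp5, Dusp6 and Dusp10 lie below 0 and those of both Dusp8 probes above 0 and above the median of all probes (dashed, 0.25), while those of Dusp4, Dusp7 and Dusp16 include 0.

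Of the cytoplasmic ERK phosphatases, Dusp6 fell and Dusp7 did not pass the test. Dusp6 (NM_026268, probe A_51_P502614, chromosome 10), a feedback inhibitor whose transcription follows ERK activity, had intensities of 1538, 1155 and 1762 in the controls against 294, 178 and 374 with PGC-1α. On the log2 scale its levels were -0.07, -0.49 and -0.10 against -1.98, -2.26 and -1.76, with replicate 2 the lowest in each group. The log2 fold change was -1.78 (SE 0.18, 95% interval -2.20 to -1.35, adjusted p = 4.1e-04 from limma), 3.43-fold lower, with -1.84 on slide 1 and -1.66 on slide 2. Dusp7 (NM_153459, probe A_52_P173197, chromosome 9), its relative of the same class, stood at 1.54, 1.48 and 1.63 in the controls against 1.33, 1.58 and 1.41 with PGC-1α. Its groups overlapped, and the log2 fold change was -0.11 (SE 0.13, 95% interval -0.42 to 0.20, adjusted p = 0.5 from limma). After quantile normalization it was -0.28 (adjusted p = 0.084). Within the arrays, Dusp6 minus Dusp7 went from -1.62, -1.98 and -1.74 on the control arrays to -3.31, -3.85 and -3.18 on the PGC-1α arrays, a change of -1.67. Dusp9, the third gene of this class and not among the 9, was well above background on 5 arrays and had a log2 fold change of -0.26 (SE 0.24, adjusted p = 0.38 from limma).

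The JNK and p38 phosphatases held a gene that fell, a gene that rose and a gene that did not pass. Dusp10 (NM_022019, probe A_51_P104418, chromosome 1), a regulator of JNK in innate immune cells, had intensities of 796, 886 and 941 in the controls against 283, 155 and 330 with PGC-1α. The log2 levels were -1.02, -0.88 and -1.01 against -2.03, -2.46 and -1.94, and PGC-1α replicate 2 was the lowest of all. The fold change was -1.18 on the log2 scale (SE 0.17, 95% interval -1.57 to -0.79, adjusted p = 0.0015 from limma), 2.26-fold lower, with -1.30 on slide 1 and -0.93 on slide 2. Dusp16 (NM_130447, probe A_66_P116252, chromosome 6), which acts mainly on JNK, stood at -1.51, -1.63 and -1.58 in the controls against -1.67, -2.10 and -1.59 with PGC-1α. Here PGC-1α replicate 2 lay low and the other two lay near the controls. The log2 fold change was -0.21 (SE 0.16, 95% interval -0.59 to 0.17, adjusted p = 0.3 from limma), with -0.31 on slide 1 and -0.01 on slide 2. Dusp10 minus Dusp16 was 0.49, 0.75 and 0.57 in the controls against -0.36, -0.37 and -0.36 with PGC-1α, a change of -0.96.

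**Figure D3:**
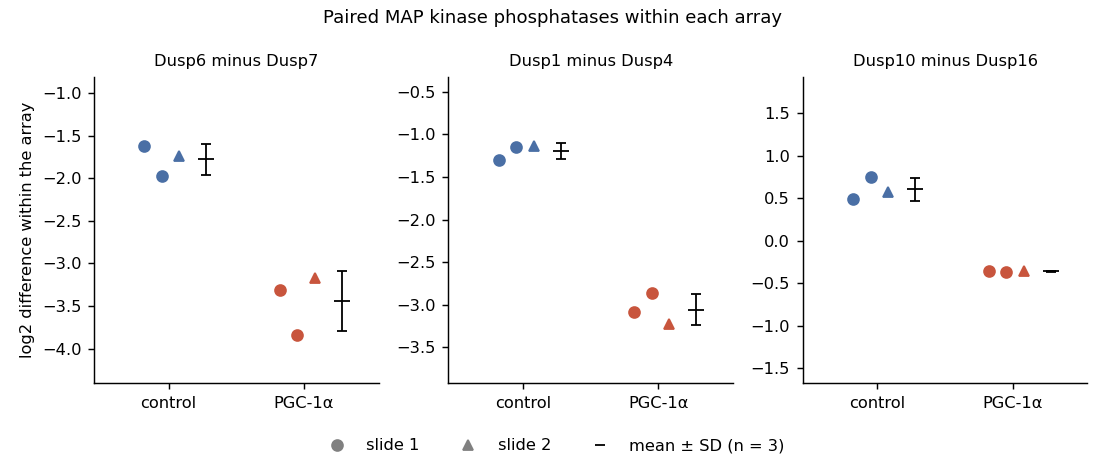
Difference in log2 intensity between 2 phosphatase probes on the same array (vertical axes) for 3 pairs of genes of like class, with each point 1 array (circles slide 1, triangles slide 2) and the bar the group mean ± SD. In each pair the PGC-1α arrays lie below the control arrays, with a change of -1.67 for Dusp6 minus Dusp7, -1.86 for Dusp1 minus Dusp4 and -0.96 for Dusp10 minus Dusp16. The first gene of each pair fell and the second did not pass, so the direction follows from the choice of pairs. Scaling a whole array by 1 factor leaves these differences as they are.

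Dusp8 (NM_008748, chromosome 7), a phosphatase of JNK known mostly from brain and heart, was dim and was the only gene of the 9 that rose. On the brighter probe, A_51_P263246, the unscaled intensities were 152, 109 and 152 in the controls against 152, 121 and 171 with PGC-1α, so that the groups overlapped before scaling. The log2 levels were -3.41, -3.91 and -3.64 against -2.93, -2.83 and -2.89. The groups then stood apart, with a log2 fold change of 0.77 (SE 0.16, 95% interval 0.41 to 1.13, adjusted p = 0.0057 from limma), 1.71-fold higher, and 0.53 above the median of all probes. The dimmer probe, A_51_P114314, had intensities of 81.0, 64.2 and 69.7 against 85.9, 94.9 and 83.6, and levels of -4.32, -4.66 and -4.76 against -3.75, -3.17 and -3.92. Its log2 fold change was 0.97 (SE 0.22, 95% interval 0.45 to 1.48, adjusted p = 0.0089 from limma), 1.95-fold higher, and the slides gave 1.03 and 0.84 (0.78 and 0.75 for the brighter probe). With normexp and quantile normalization the probes were at 0.41 (adjusted p = 0.051) and 0.43 (adjusted p = 0.028), with 19% of all tested probes higher. Both read the same transcript and count as 1 gene.

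Set among all tested probes, the 5 genes that fell lay in the lower tail. A lower log2 fold change than that of Dusp2 was seen in 0.44% of probes, than that of Dusp1 in 2.23%, than that of Dusp6 in 2.4%, than that of Dusp5 in 2.73% and than that of Dusp10 in 6.34%. Dusp16, Dusp7 and Dusp4 lay nearer the middle, at 27.98%, 32.15% and 38.28%. The Dusp8 probes lay at 82.5% and 90.79%. Relative to the median of all probes, the log2 fold changes ran from -3.14 for Dusp2 to 0.72 for the dimmer Dusp8 probe. In the order of log2 fold change, Dusp1, Dusp6 and Dusp5 followed Dusp2 and their 95% intervals overlapped, so their order among themselves is not resolved, and the interval of Dusp2 overlapped none of the others.

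**Figure D4:**
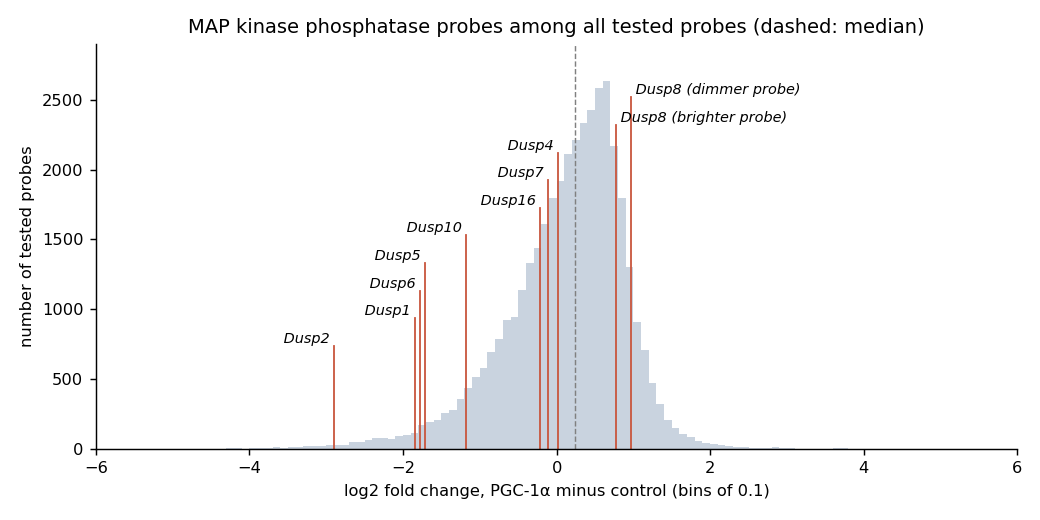
Histogram of the log2 fold change (PGC-1α minus control, horizontal axis, bins of 0.1) over the 39295 tested probes, with the number of probes on the vertical axis, the 10 phosphatase probes as labelled vertical lines and the median of all probes dashed. Dusp2, Dusp1, Dusp6, Dusp5 and Dusp10 stand in the lower tail, Dusp16, Dusp7 and Dusp4 below the median near the centre, and the Dusp8 probes above it. The height of the lines only separates the labels.

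The genes with a level pattern most like that of Dusp2 over the 6 arrays were Srd5a1, 9630028I04Rik and B4galt6, each with a Pearson's r of 0.999 and log2 fold changes of -2.15, -1.75 and -2.31. For the dimmer Dusp8 probe they were Slc48a1 (r = 0.9997, log2 fold change 0.66), Capns1 (r = 0.999, 0.58) and D630029K05Rik (r = 0.999, 0.82). The arrays form 2 separate groups, so such an r follows mainly the difference between the groups, and 229 and 148 of the 16112 genes compared had an r above 0.99.

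For the genes around the phosphatases, each gene was read by its brightest tested probe with p-values adjusted over all probes, a reading in which 18.4% of the 17172 tested genes were lower and 34.6% higher, with a median log2 fold change of 0.23 (20.9% lower and 21.2% higher after quantile normalization). Of the 9 phosphatases, 5 were lower and 1 higher, with a median of -1.18. Of 19 other dual specificity phosphatases tested, 2 were lower and 6 higher (median -0.04). The falls were in Dusp14 and in Ssh2, which encodes a phosphatase of cofilin. Dusp14 was at -1.18 (SE 0.19, adjusted p = 0.003 from limma), with its other probe at -0.35. It had no value on control replicate 2, and the other control arrays stood at -0.39 and 0.04. Ssh2 was at -1.43 (SE 0.13, adjusted p = 2.4e-04 from limma), with its other probe at -0.79. The largest rises were in Dusp26, dim and well above background on 4 arrays (1.03, adjusted p = 0.0097, and 0.80 with adjusted p = 0.06 after quantile normalization), Dusp15 (0.97, adjusted p = 0.0017; its other probe was at 0.27) and Dusp13 (0.94, adjusted p = 0.0072; its other probe was at -0.39, so its direction is not settled). Of 6 other phosphatases that act on MAP kinases, Ppm1d, a p53-induced phosphatase of p38, was at -1.48 (SE 0.13, adjusted p = 2.2e-04; its other probe was at -1.84) and Ptpn7 at -0.49 (adjusted p = 0.019), Ptpn5 was at 0.73 (adjusted p = 0.0051; its other probe was at 0.60), and 3 did not pass. Dusp21 and Ptprr were not well above background on any array.

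The kinases that the phosphatases act on showed no common direction. Of 12 MAP kinases, 2 were lower, Mapk12, a p38 isoform (-1.14, SE 0.16, adjusted p = 0.0015 from limma; its other probe was at -0.28), and Mapk7, a large relative of the ERK kinases (-1.07, SE 0.15, adjusted p = 0.0013). The count of higher ones was 5 under the 75th percentile, led by Mapk13 (0.74, adjusted p = 0.011), Mapk6 (0.66, adjusted p = 0.028; its other probe was at -0.09, so its direction is not settled) and Mapk3 (0.57, adjusted p = 0.014), but 1 after quantile normalization, where 3 were lower. Mapk14, which encodes a p38 kinase, was at -0.32 (adjusted p = 0.093; its other probe was at -0.29) and Mapk8, which encodes a JNK kinase, at 0.19 (adjusted p = 0.43), with its other probes on both sides of 0. After quantile normalization Mapk14 was at -0.46 (adjusted p = 0.029 from limma) and was among the 3 lower ones. Mapk6 had no value on PGC-1α replicate 2. Mapk4 was not well above background on any array. Of 7 MAP kinase kinases 1 passed, Map2k1, which encodes an activator of ERK, at 0.87 (SE 0.16, adjusted p = 0.0043).

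One level higher, 6 of 19 MAP3 kinases and partners were lower and 2 higher (median -0.40). The largest falls were in Map3k5, a stress-activated kinase upstream of JNK and p38 (-1.79, SE 0.16, adjusted p = 2.3e-04 from limma; its other probe was at -1.81), Map3k11 (-1.62, SE 0.16, adjusted p = 3.6e-04) and Map3k8, the kinase through which LPS activates ERK in macrophages (-1.33, SE 0.17, adjusted p = 8.9e-04). Map3k8 stood at -2.85 ± 0.04 (SD, n = 3) on the control arrays and at -4.19 ± 0.28 (SD, n = 3) on the PGC-1α arrays. The rises were in Map3k12 (0.85, adjusted p = 0.0047) and Map3k14, an activator of the noncanonical NF-κB pathway (0.79, adjusted p = 0.007; its other probe was at 0.10). Of 10 kinases that MAP kinases activate, Mknk1 (-0.40, adjusted p = 0.037; its other probe was at 0.27, so its direction is not settled) and Rps6ka2 (-0.40, adjusted p = 0.04) were lower and 0 higher. Of 7 scaffold genes, 2 were higher, Mapk8ip1 (0.87, adjusted p = 0.0054) and Mapk8ip2 (0.69, adjusted p = 0.027), and 0 lower. All these counts rest on the brightest probe of each gene. Among genes that did not pass, another probe lay lower for Rps6ka5 (-2.24 against 0.03) and Ksr1 (-1.30 against 0.23). The same held for Mapk9 (-1.12 against 0.05) and Map2k4 (-0.99 against 0.04). Another probe lay higher for Mapk15 (1.32 against 0.59) and Braf (0.79 against 0.035).

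Among the other feedback inhibitors, the Sprouty and Spred genes, which act upstream of ERK, 4 of 6 tested were lower and 1 higher, with a median of -0.77 and of -0.82 after quantile normalization, where 5 were lower and 0 higher. The largest falls were in Spry4 (-1.67, SE 0.31, adjusted p = 0.0039 from limma), Spry2 (-1.13, SE 0.18, adjusted p = 0.0023) and Spred2 (-0.88, SE 0.14, adjusted p = 0.0026; its other probe was at -0.75). Spred3 was at 0.64 (adjusted p = 0.034), while its other probe was at -0.85, so its direction is not settled. Spry3 was not well above background on any array. Of 9 genes whose transcription is known to follow ERK, 5 were lower and 1 higher (median -0.50). Myc, a growth-promoting transcription factor (-1.09, SE 0.13, adjusted p = 6.5e-04; its other probe was at -0.96), Phlda1 (-0.995, SE 0.15, adjusted p = 0.0018) and Fosl1, an AP-1 subunit (-0.62, SE 0.14, adjusted p = 0.0084), fell furthest. Egr1, an immediate early transcription factor, rose by 1.23 (SE 0.22, adjusted p = 0.0033), from -3.35 ± 0.27 (SD, n = 3) to -2.11 ± 0.35 (SD, n = 3), opposite to Dusp6 and Dusp5. These counts describe short lists and were not tested against other genes.

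**Figure D5:**
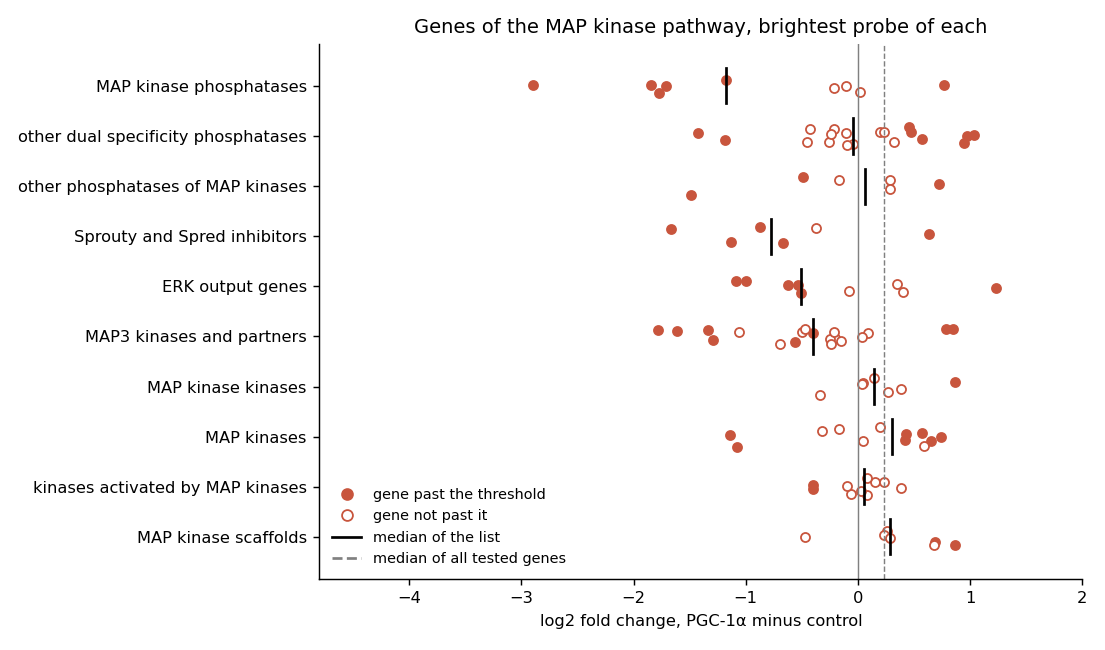
Log2 fold change (PGC-1α minus control, horizontal axis) of each tested gene of the phosphatases and of the lists around them, with 1 point per gene, filled for genes past an adjusted p of 0.05 and open for the others, a bar at the median of each list and the median of all genes dashed (0.23). The phosphatases have a median of -1.18, the Sprouty and Spred genes one of -0.77, and the MAP kinases spread to both sides of 0.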

How the data were processed

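The deposited scanner files hold the green channel of 6 one-colour Agilent mouse arrays. The authors' scanner software (Agilent Feature Extraction 11.5.1.1, per the file headers) had subtracted the background of each spot's intensity, and these intensity values were not normalized between arrays. The labels name the dye as Cy3 and the labelling protocol as Cy5. The authors also deposited log2 values of 42110 probes, normalized in GeneSpring by a procedure not given in the sources used here, which served as an alternative. The spot flags for background, outliers and saturation, also deposited, were used as filters.

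Each array's 75th percentile over its 59305 non-control spots was subtracted on the log2 scale. Outlier spots (149 to 1590 per array) were left out, none of a phosphatase probe, no spot was saturated, and spots of a probe were averaged. Accessions matched 33767 of 56605 probes (59.7%) to 23462 RefSeq genes of the mouse assembly GRCm38. The array design names mm9, so no probe coordinates are given. Tested probes had at least 2 values in each group and, in 1 group or both, stood well above background on its 3 arrays. They numbered 39295, with missing spots left missing. The functions lmFit and eBayes (limma 3.58.1, R 4.3.3) compared the 3 PGC-1α with the 3 control arrays, two-sided, with no covariate and with Benjamini-Hochberg adjustment over all tested probes at 0.05. The code was tested on simulated data. Python 3.11.15, numpy 2.4.6, pandas 2.3.3, scipy 1.17.1 and matplotlib 3.10.9 made the tables, exact tests and plots.

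The named genes are every member, of each other list the genes past the threshold with the largest changes, up to 3 in each direction, and those not well above background on any array, the 3 genes most like the largest fall and the largest rise, and Ppargc1a. Mapk8, Mapk14 and Dusp9 were named beyond this rule, and marker lists are given by counts. The members, lists and tests were chosen with earlier results of these data known. Alternatives were quantile normalization, median scaling, normexp with an offset of 50 before either scaling, other filters, genes in place of probes, a block for slide or for replicate number, eBayes with its trend and robust options, arrayWeights, the authors' log2 values, a fold threshold and each array left out in turn. The number of arrays limits the precision.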

Additional observations from a re-analysis of the deposited data

How the results depend on the processing

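Of 218 recomputed log2 fold changes of single phosphatase probes, 212 kept their direction and their side of the threshold. With other filters, outlier spots kept, a block, or the trend and robust options, the estimates cannot move, so there only the side of the threshold was tested. The mean of the Dusp8 probes (0.87) is counted under each of them. The Dusp4 probe, which did not pass, changed sign in 5: -0.015 with quantile normalization, with every probe or with the brightest probe of each gene (the latter chosen after seeing the data), -0.087 with median scaling, -0.016 with the authors' log2 values and -0.004 without PGC-1α replicate 3 (-0.004 to 0.049 over the arrays left out in turn). The remaining one was the brighter Dusp8 probe with normexp and quantile normalization, at 0.41 (adjusted p = 0.051). In all alternatives run, 5 probes were lower. The higher count, 2 as reported, was 1 with normexp and quantile normalization, 1 by the brightest probe or the mean of the probes of each gene, also after quantile normalization, since Dusp8 then counts once, and 0 when the log2 fold change also had to reach 1. Each array left out in turn gave 5 lower and 2 higher.

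The lowest and highest log2 fold changes over the alternatives were -3.06 and -2.63 for Dusp2, -1.95 and -1.65 for Dusp1, -1.88 and -1.07 for Dusp5, -1.91 and -1.54 for Dusp6, -1.29 and -0.86 for Dusp10, and 0.41 and 1.12 over both Dusp8 probes. With an array left out they were -3.06 and -2.81, -1.91 and -1.78, -1.88 and -1.57, -1.91 and -1.65, -1.28 and -1.02, and 0.65 and 1.12 in the same order.

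Over the other lists of the pathway pooled (95 genes tested), 23 were lower and 19 higher, against 18.4% and 34.6% of all tested genes. Array weights gave 37 lower and 33 higher, and the authors' log2 values 26 lower and 11 higher of 97 tested. The added fold threshold of 1 on the log2 scale gave 12 lower and 2 higher (8.34% and 8.07% of all tested probes). Leaving out each array in turn gave 17 to 24 lower and 14 to 17 higher. Under array weights, the authors' values, a block or an array left out, the share of all tested genes was not counted. Those counts are therefore not set against other genes. The cause of the differences between settings was not tested.

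With the replicate number as a block, 5 phosphatase probes were lower and 2 higher, and 25 and 21 of the list genes. Deviations from the group means correlated between arrays of the same number at -0.21, 0.0031 and 0.59 (numbers 1 to 3, 37314 probes), so the numbers are not taken to pair the arrays, and only the arrays numbered 3 correlated best with each other. Those were the only arrays on slide 2, so a shared number and a shared slide cannot be told apart for them. On slide 1, control replicate 1 and PGC-1α replicate 2 correlated at 0.53, and control replicate 2 and PGC-1α replicate 1 at 0.23. Each deviation is taken from the mean of only 3 arrays, so these correlations constrain one another and are not separate evidence. The fit with the slide as a block gave 27 list genes lower and 21 higher. With normexp and its offset of 50 before scaling to the 75th percentile, Dusp5 was at -1.07, Dusp10 at -0.86 and Dusp2 at -2.63. The Dusp8 probes were at 0.65 and 0.72. The parts of the background correction and of the offset in these values were not tested.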
